A study of Arabidopsis thaliana with 4 samples.

Results

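*PIP2A* (*AT3G53420*) and *P5CS1* (*AT2G39800*) are the subject here, as 2 water balance genes of which the former had much the taller AtbZIP17 peak. By its height *P5CS1* was weakly bound only relative to *PIP2A*, since its mean pileup was near the median of the 842 target genes looked at. These are the genes in the lines of the target table that were used here, a table that joins peaks to genes in the upstream 2 kb. Each line names a peak of each of the 3 replicates, so presence in all of them was fixed by the choice of genes. The other lines of the table, a large part of it, were not used. Places and shares among the 842 genes therefore do not cover all target genes. The 6 peaks of *PIP2A* and *P5CS1* are part of 13344 peaks in the 3 deposited lists. The genes were chosen by the height of their ChIP-seq peaks, as a taller and a lower peak at genes that are both on the list of genes with heat induction in wild-type but not *bzip17* flowers. The difference in peak height between them is therefore a description, and no test was made of it. The flower list comes from RNA-seq of unopened floral buds of wild-type and *bzip17* plants. Those plants were heated at a lower temperature and for longer than the seedlings described here. Only membership of the flower list is given here, without expression values. For *P5CS1* the paper also reports RT-qPCR in flowers, with a significant rise under heat in wild-type but not in *bzip17* plants.

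The samples were *Arabidopsis thaliana* seedlings of genotype 35Spro::MYC-bZIP17, in which a constitutively active viral promoter drives a MYC-tagged AtbZIP17. Plants were 13 days old, were grown at 22 °C and were kept at 42 °C for 2 h before fixation. Chromatin of 3 samples was precipitated with an anti-MYC antibody, and 1 input library of the same genotype and treatment was not precipitated. All samples carry the transgene and the heat treatment, and no unheated or untagged sample was analysed here, so the binding is described under heat alone. The labels do not say whether the 3 ChIP samples came from separate cultures, and the spread between them may be technical.

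AtbZIP17 is a membrane-anchored transcription factor of the bZIP family. Under stress it leaves the endoplasmic reticulum, is cleaved in the Golgi, and its freed cytosolic part enters the nucleus and binds DNA. *PIP2A*, also named *PIP2;1*, encodes an aquaporin of the plasma membrane, a channel that lets water pass in and out of the cell. *P5CS1* encodes delta1-pyrroline-5-carboxylate synthase, the rate-limiting enzyme that makes proline from glutamate, and proline accumulates in plants as a compatible solute under drought and salt stress. The first gene thus belongs to the transport of water and the second to osmotic adjustment.

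A fragment at *P5CS1* was also assayed by ChIP-qPCR in the study, which reports binding of AtbZIP17 to the promoter region of this gene. The primers are shown since they mark the stretch of DNA chosen to check binding there. They are given 5′ to 3′ in lower case, with no part marked. Their position relative to the peaks was not determined here.
ChIP-qP5CS1-F: caatcctctacatcacaccc
ChIP-qP5CS1-R: gtggagatcaccaaggaaga

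A peak listed as upstream of *PIP2A* was present in each of the 3 replicates, as the target table requires, and was among the tallest of each list. The pileup, which counts the fragments stacked at the summit, was 253, 300 and 290 in replicates 1, 2 and 3, and averaged 281 ± 24.8 (SD, n = 3). The lowest value was that of replicate 1, and replicates 2 and 3 lay close together. Against the median pileup of the list, which was 35, 35 and 34, the *PIP2A* peak was 7.23, 8.57 and 8.53 times as high. Of the 4523, 4491 and 4330 peaks in lists 1, 2 and 3, it ranked 45, 42 and 43. The rank thus moved by only a few places between the replicates, and 99.0% of the peaks were lower in each list. The fold enrichment, in which MACS sets the pileup against a local background modelled on the input, was 13.9, 16.2 and 15.7 in replicates 1, 2 and 3.

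A peak listed as upstream of *P5CS1* was also present in each replicate, as the target table requires, but it was much lower. Its pileup was 64, 44 and 54 in replicates 1, 2 and 3, and averaged 54.0 ± 10 (SD, n = 3). Here replicate 1 was the highest and replicate 2 the lowest. Relative to the median of the list, the peak was 1.83, 1.26 and 1.59 times as high. Its rank by pileup was 451, 963 and 641 in replicates 1, 2 and 3, and 89.6%, 77.4% and 84.9% of the peaks were lower. Many peaks had the same pileup as *P5CS1*, with 21, 55 and 15 peaks at its value in the 3 lists, itself included, so a rank at this height covers a range. The SD was 18.5% of the mean pileup at *P5CS1* and 8.81% at *PIP2A*.

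**Figure D1:**
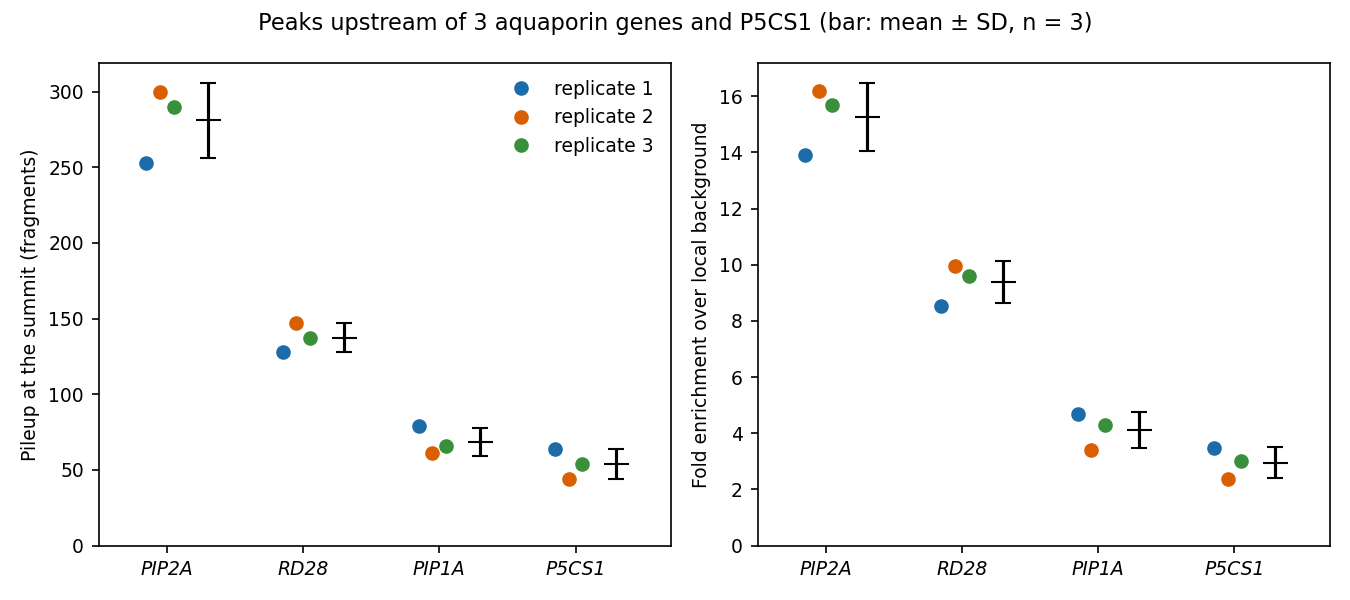
Pileup in fragments (left) and fold enrichment (right) at the tallest listed peak of *PIP2A*, *RD28*, *PIP1A* and *P5CS1*. Each point is 1 replicate, and the bar gives the mean and SD of 3 replicates. The *PIP2A* points lie between 253 and 300 fragments and the *P5CS1* points between 44 and 64, with no overlap.

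The 3 values of *PIP2A* were above the 3 values of *P5CS1*, as the choice of the pair requires. The pileup at *PIP2A* was 3.95 times that at *P5CS1* in replicate 1, 6.82 times in replicate 2 and 5.37 times in replicate 3, with a mean ratio of 5.38 ± 1.43 (SD, n = 3). The ratio of the mean pileups was 5.20. The ratio was lowest in replicate 1, where *PIP2A* had its lowest and *P5CS1* its highest value. In fragments, *PIP2A* was higher by 189, 256 and 236 in the 3 replicates. The local background was approximated as the pileup divided by the fold enrichment, as the exact formula is not stated. It was nearly the same at both genes, with 18.4 ± 0.200 fragments at *PIP2A* and 18.3 ± 0.345 at *P5CS1* (SD, n = 3). The contrast in fold enrichment thus followed that in pileup, and its ratios were 4.02, 6.82 and 5.19.

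The *PIP2A* peaks passed stricter limits in all replicates, and the *P5CS1* peaks did not. With a nearly equal local background at both genes, this largely restates the difference in height by which the pair was chosen. The −log10 of the *q* value was 192, 246 and 234 at *PIP2A*, and 14.7, 4.99 and 9.95 at *P5CS1*. A *q* value under 1e-05 was reached by *PIP2A* in all 3 replicates and by *P5CS1* in replicates 1 and 3, as it was by 25.2%, 26.9% and 27.7% of the peaks in the lists of replicates 1, 2 and 3. The *P5CS1* peak of replicate 2 fell just short of this limit. *PIP2A* had a fold enrichment of at least 3 in the 3 replicates and *P5CS1* in 2 of them, beside 14.7%, 17.1% and 17.6% of all peaks in lists 1, 2 and 3, and the *P5CS1* values were 3.47, 2.38 and 3.02 in replicates 1, 2 and 3.

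**Figure D2:**
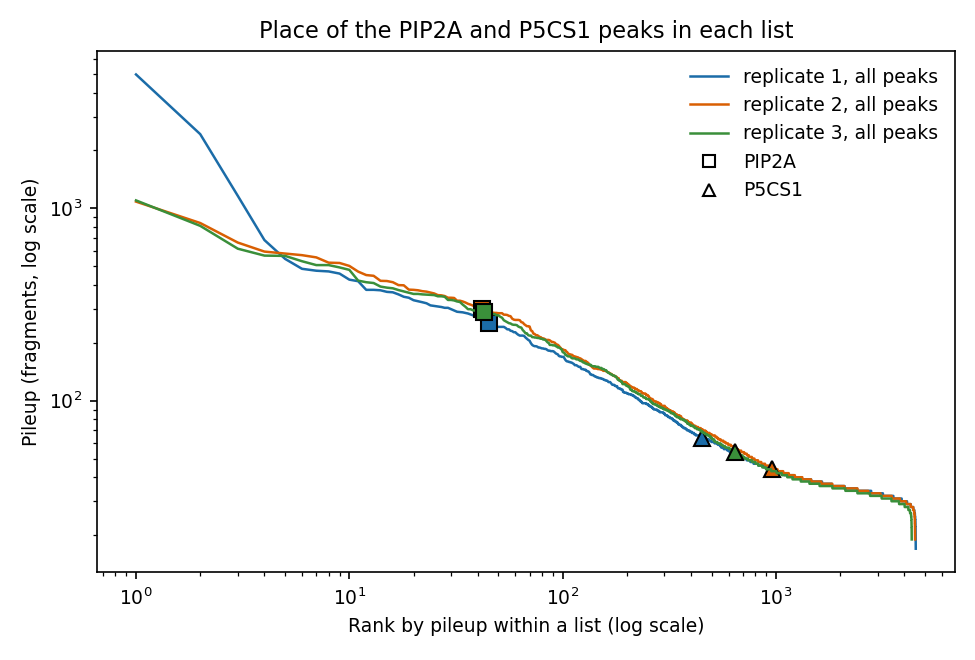
Pileup in fragments against rank by pileup for all peaks of each list, both on log scales, with *PIP2A* (squares) and *P5CS1* (triangles) marked. *PIP2A* sits at ranks 42 to 45 in all lists, while *P5CS1* lies between rank 451 and rank 963.

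The summits of the replicates lay close together at both genes. At *PIP2A* on chromosome 3, the summits were at 19807365, 19807391 and 19807404 in replicates 1, 2 and 3, a span of 39 bp. At *P5CS1* on chromosome 2, the summits of replicates 1 and 3 were 1 bp apart, at 16603244 and 16603245, while that of replicate 2 was at 16603094, so that the span was 151 bp. The wider span at *P5CS1* rests on replicate 2 alone, which was also the replicate with the lowest pileup. Among the other aquaporin genes with peaks, the span was 144 bp at the taller *RD28* and 49 bp at the lower *PIP1A*. Whether the span depends on the height of the peak was not tested. All positions are those of the deposited lists, for which the labels name the build TAIR10.

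The *PIP2A* peaks were wide, and each was wider than the upstream 2 kb by which peaks were joined to genes. In replicate 1 the peak covered 4148 bp (19805074 to 19809221), in replicate 2 it covered 3171 bp (19805849 to 19809019) and in replicate 3 it covered 3006 bp (19805923 to 19808928). The peak of replicate 3 lay entirely within those of replicates 1 and 2, and its 3006 bp were thus covered in all replicates. The *P5CS1* peaks covered 982 bp (16602788 to 16603769), 695 bp (16602933 to 16603627) and 1145 bp (16602820 to 16603964). Here the peak of replicate 2 was the narrowest and lay within both others, which left 695 bp common to the replicates. The median width of all peaks was 416, 441 and 440 bp in the 3 lists, and both genes were above it in every replicate.

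The greater width of the *PIP2A* peak is shared by other peaks of its height. Among the peaks with a pileup within 10% of that of *PIP2A*, 20, 23 and 19 in the 3 lists, the median width was 3584, 3533 and 3301 bp, and 75.0%, 30.4% and 21.1% of them were narrower than the *PIP2A* peak. At *P5CS1* the peaks of like height numbered 170, 504 and 222, with a median width of 1215, 552 and 866 bp, and 31.8%, 67.1% and 72.5% of them were narrower. Neither gene lay at the edge of the widths found at its height.

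The larger width of the *PIP2A* peak in replicate 1 came with a difference in how the region was divided. Its left edge was at 19805074, while replicates 2 and 3 began 775 and 849 bp farther on. In these 2 replicates, a separate small peak occupied that flank, from 19805158 to 19805458 with a pileup of 33 and a fold enrichment of 2.10 in replicate 2, and from 19804960 to 19805367 with a pileup of 31 and a fold enrichment of 2.03 in replicate 3. When overlapping peaks were merged, the region at *PIP2A* held 5 peaks and was 4262 bp wide, from 19804960 to 19809221. The 2 small peaks were not listed for any gene in the lines used here. Among the 1341 merged regions with peaks of all replicates, 342 (25.5%) likewise had more than 1 peak in a replicate. The region at *P5CS1* held 3 peaks, 1 of each replicate, over 1177 bp.

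**Figure D3:**
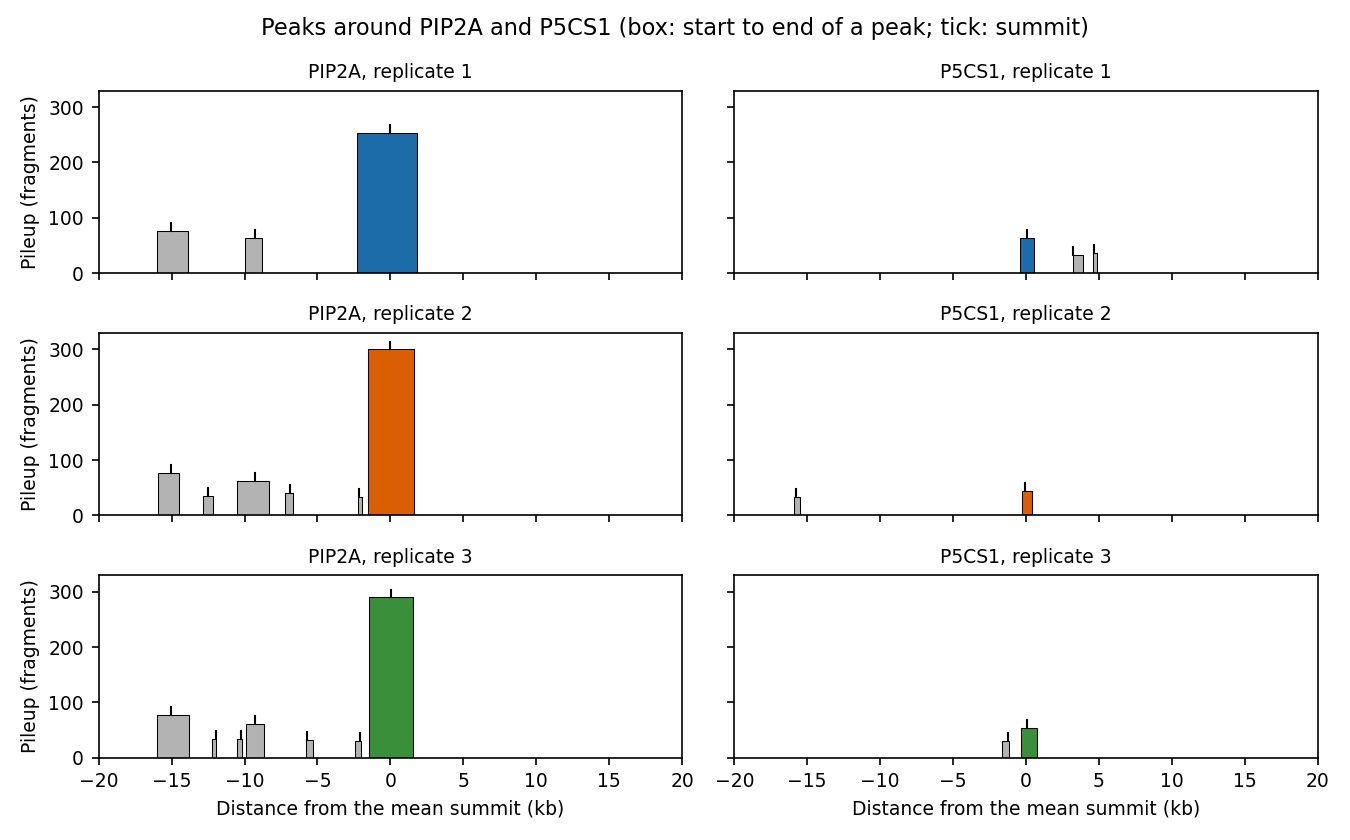
Peaks within 20 kb of the mean summit at *PIP2A* (left) and *P5CS1* (right) in each replicate, with distance in kb on the x axis and pileup in fragments on the y axis. Coloured boxes run from the start to the end of the peak listed for the gene, grey boxes are other peaks, and ticks mark summits. At *PIP2A* a small flanking peak stands apart in replicates 2 and 3, where the wide peak of replicate 1 covers that of replicate 2 wholly and that of replicate 3 in part, and all other peaks lie on 1 side.

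The surroundings of the genes also differed. Within 20 kb of the summit, there were 2, 5 and 6 other peaks around *PIP2A* in replicates 1, 2 and 3, all of them at lower coordinates, and 2, 1 and 1 around *P5CS1*. A peak of every replicate was found about 15 kb from *PIP2A*, with a pileup of 77, 77 and 78, and another about 9.3 kb away, where the tallest peaks had a pileup of 64, 63 and 61. These are listed for other genes, *AT3G53380* for the former and *AT3G53400* and *AT3G53402* for the latter. None of the other peaks around *P5CS1* overlapped between replicates, and their pileup was 33 and 37 for the pair in replicate 1, and 34 and 31 for the single peaks in replicates 2 and 3. The *P5CS1* peak was thus the only one of its surroundings that was found in all replicates.

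The peaks of *PIP2A* and *P5CS1* were listed for no other gene in the lines used here. By their order in RefSeq (assembly TAIR10.1), the protein-coding neighbours of *PIP2A* are *LUL2* (*AT3G53410*), a ubiquitin ligase gene, and *AT3G53430*, and those of *P5CS1* are *AT2G39795* and *AT2G39805*. None of these 4 genes is named in the part of the table used here. Each member had 1 listed peak per replicate.

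How the replicates relate to one another at the genes was compared with other common regions of similar height. At *PIP2A*, the pileup of replicate 1 was 0.843 times that of replicate 2 and 0.872 times that of replicate 3. In the 41 other common regions with a mean pileup within 20% of that of *PIP2A*, the median of these ratios was 0.849 and 0.897, and replicate 1 was the lowest in 36 of them (87.8%). With its lowest value in replicate 1, *PIP2A* was like most regions of this height. At *P5CS1*, the pileup of replicate 1 was 1.45 times that of replicate 2 and 1.19 times that of replicate 3. In the 428 other common regions of similar height the median ratios were 0.949 and 0.979, and the middle 80% of the ratios to replicate 2 ran from 0.754 to 1.18. The ratio to replicate 2 at *P5CS1* was higher than in 99.3% of these regions and the ratio to replicate 3 higher than in 83.2%. Replicate 1 was the highest of the replicates in 94 of the 428 regions (22.0%). All lists were made against the same input, and regions are not independent replicates, so these shares are descriptions.

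**Figure D4:**
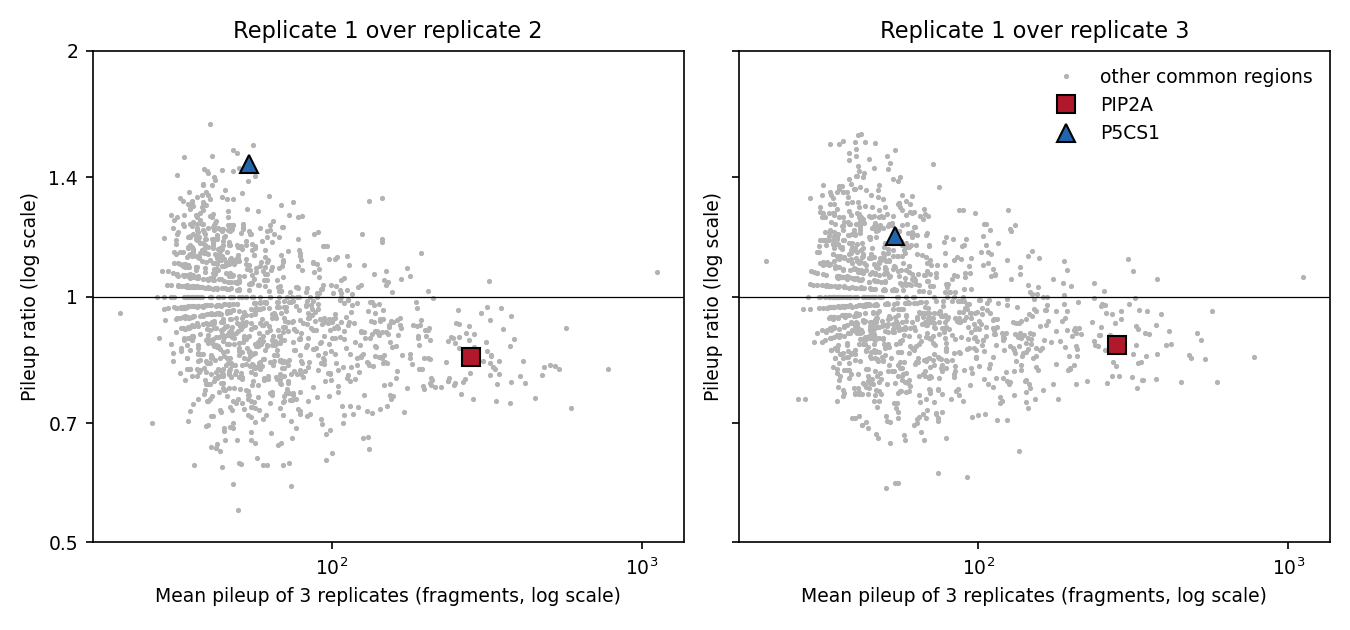
Ratio of the pileup in replicate 1 to that in replicate 2 (left) and replicate 3 (right) against the mean pileup of 3 replicates in fragments, for 1341 common regions, all axes on log scales. *PIP2A* (square) lies among regions of its height with ratios of 0.843 and 0.872, while *P5CS1* (triangle) lies near the upper edge against replicate 2, at 1.45.

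Within the genes of the target table lines used here, *PIP2A* ranked 34 of 842 by mean pileup, above 96.0% of them, and *P5CS1* ranked 459, above 45.1%. Each gene entered with its tallest listed peak in each replicate. Genes sharing a peak thus count separately, and the mean of a gene can join peaks of different places. The median over the 842 genes was 58.2 fragments, so *P5CS1* was slightly under the middle gene. Among the 57 of these genes that are also on the flower list, *PIP2A* was in place 2 and *P5CS1* in place 34, and their median was 58.7 fragments. Both genes were chosen from this list as a tall and a lower peak, so their places in it describe that choice.

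The genes with the pileup most like that of each member were found by the smallest distance of log2 pileup over the 3 replicates. The 3 genes nearest to *PIP2A* were *LEC1* (*AT1G21970*), an embryo development factor gene, *AT1G21975* and *PIP5K1* (*AT1G21980*), a phosphoinositide kinase gene, each at a distance of 0.07. They share the same peaks on chromosome 1, with a pileup of 242, 300 and 294 in replicates 1, 2 and 3. The gene nearest to *P5CS1* was *AT3G13310*, with a pileup of 66, 47 and 57 and a distance of 0.13, so that it had its highest value in replicate 1 and its lowest in replicate 2, as *P5CS1* did. It was followed by *RSZ21* (*AT1G23860*), a splicing factor gene, and *TPS9* (*AT1G23870*), a gene of the trehalose phosphate synthase family, which share peaks with a pileup of 56, 46 and 53 and a distance of 0.20. None of these 6 genes is on the flower list.

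The other genes of water transport and proline metabolism were looked up by family. Aquaporins form 4 groups in *Arabidopsis*, of which the PIPs are at the plasma membrane and the TIPs at the tonoplast, while NIPs and SIPs are smaller and more diverse groups. Of 35 aquaporin genes, 3 (8.57%) had overlapping peaks of all 3 replicates in the lines used here, against 2.63% of 27562 protein-coding genes, and *PIP2A* was 1 of the 3. All 3 were among the 13 PIP genes, and none of the 10 TIP, 9 NIP and 3 SIP genes occurred. Of 10 genes of proline synthesis, breakdown and transport, only *P5CS1* occurred. With counts this small and with *PIP2A* and *P5CS1* chosen beforehand, the shares describe the lists and nothing more. A gene that does not occur may be in the lines not used here.

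The other aquaporin genes with peaks were *RD28* (*AT2G37180*), which is *PIP2;3*, and *PIP1A* (*AT3G61430*), which is *PIP1;1*. *RD28* had a pileup of 128, 147 and 137 in replicates 1, 2 and 3, a mean of 137 ± 9.50 (SD, n = 3), and ranked 125 of the 842 genes. Its peak was also wide, with 2398, 2986 and 2997 bp, and its summits on chromosome 2 were at 15616208, 15616352 and 15616311. *PIP1A* had a pileup of 79, 61 and 66, a mean of 68.7 ± 9.29 (SD, n = 3), and its summits on chromosome 3 spanned 49 bp. In the order of pileup, *PIP2A*, *RD28* and *PIP1A* did not overlap, while the range of *PIP1A* began at 61, under the highest value of *P5CS1*, 64. The ranges of *PIP1A* and *P5CS1* thus overlapped, although *PIP1A* was the higher of the pair within each replicate. The next gene to *RD28* in RefSeq order is *PIP2B*, a close relative of it. The authors kept reads with a unique position, and whether this lowered the pileup between these related genes was not tested. *PIP1A* and *PIP2A* are on the flower list and *RD28* is not. *PIP1B*, *NLM1*, *DELTA-OAT* and *PROT2* of the 2 families are on the flower list but are absent from the lines used, and no peak value is given for them.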

How the data were processed

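Per the paper's methods, the authors used Skewer for trimming (reads under 50 bp were discarded), Bowtie for unique mapping with removal of duplicates, and MACS for peak calling, separately for each ChIP sample and against 1 input, at *P* under 0.001. The build TAIR10 and Bowtie are also named in the submitters' processing notes, without versions. The deposited pileup is a signal in fragments with no scaling stated, the deposited fold enrichment is a linear ratio to the local background, and the deposited −log10 values are of MACS *P* and *q* values. Read totals are not in the lists, so depth is unknown and no counting interval is given.

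Peaks were joined to genes by peak name through 1389 lines of the target table, and the other lines were not used here. Peaks overlapping by at least 1 bp were merged. Means and SD are over 3 replicates of 1 condition, and no test was made. The members and the lists of 35 aquaporin and 10 proline genes were chosen with earlier results of these data known. Named genes are the members, genes listed for the same peaks, adjacent genes, family genes with peaks of all replicates, and the 3 genes nearest to each member in log2 pileup; others were named after their values were seen. All 45 family loci were found in RefSeq (TAIR10.1), of which only names and gene order were used. No genome sequence was used here, so motifs were not searched and distances to gene starts were not computed. Merging was checked on simulated peaks of 1 width with 1 shared peak per replicate, and ranking on values without ties. Split regions and tied values, which the deposited lists hold, were not covered by that check. Alternatives were other limits, overlaps, scales, and each replicate left out. Python 3.11.15, pandas 2.3.3, NumPy 2.4.6 and matplotlib 3.10.9 were used.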

Additional observations from a re-analysis of the deposited data

How the results depend on the processing

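Of 32 alternative values, 27 stayed within 1 SD of the replicates or within 1.5 times the count, and 5 moved further. Leaving out 1 of 3 replicates cannot move their mean by 1 SD. The *PIP2A* peaks also lay far above the limits on *q* value and fold enrichment. Such alternatives could not have moved, so the count does not measure robustness. The replicates with a *P5CS1* peak fell from 3 to 2 under the limit on *q* value and under that on fold enrichment. Both falls lay at 1.5 times and were counted as unmoved. The ratio of the mean pileup at *PIP2A* to that at *P5CS1*, 5.20, became 7.35 when the approximate local background was subtracted. This takes a like number of fragments from a high and a low peak. The ratio ran from 4.60 to 6.02 with each replicate left out. It was 5.21 for pileup over the median of its list and 5.17 for fold enrichment. The 1 proline gene with overlapping peaks, *P5CS1*, was lost (0 genes) with a *q* value under 1e-05 or a fold enrichment of at least 3 in all 3 peaks, owing to replicate 2. The 3 aquaporin genes stayed under each of these limits. Among peaks of common regions alone, the share of peaks lower than the member fell from 99.0% to 97.1% at *PIP2A* and from 83.9% to 55.3% at *P5CS1*, since common regions hold fewer low peaks. The mean pileup ran from 272 to 295 at *PIP2A* and from 49.0 to 59.0 at *P5CS1* with each replicate left out. No paired analysis was possible because all ChIP samples belong to 1 group, so no replicate block between groups could be fitted, and the ratio between the genes was also taken within each replicate. The lists hold only peaks past the *P* value limit, so enrichment slightly under the limit goes unlisted.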
